A study of Homo sapiens with 14 samples.

Results

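The genes described here are 47 genes of the amino acid and unfolded protein stress responses, picked by name out of the 58219 genes in the deposited count table. All 47 were found, and all 47 passed the filter on low counts, which kept 21032 genes. They fall into an amino acid arm of 32 genes, which holds ATF4, its partners and the enzymes, carriers and tRNA synthetases it is known to control, and an ER arm of 15 genes, which holds XBP1 and the folding and disposal factors of the endoplasmic reticulum (ER). RNA was sequenced from 14 libraries of OVCAR4, an established line of high-grade serous ovarian cancer, in 7 groups of 2. Cells received a Dharmacon siRNA pool against PAX8 (siPAX8), SOX17 (siSOX17), MECOM (siMECOM) or WT1 (siWT1), or the PAX8 and SOX17 pools together (siDual). The controls received the ON-TARGETplus non-targeting pool (siNT1) or a custom non-targeting pool of catalogue siRNAs (siNT2). Every group, controls included, was reverse transfected with 120 nM siRNA, refed at 24 h and harvested at 72 h in medium with serum, non-essential amino acids and insulin. Each result therefore compares transfected cells with transfected cells of the same line at the same time. The labels give neither how the siDual dose was divided between the pools nor whether replicates were transfected separately. P-values therefore measure only the spread between these libraries, which may be technical.

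By way of background, cells that lack an amino acid or that accumulate unfolded protein phosphorylate the initiation factor eIF2alpha, which slows translation at large but favours that of ATF4. ATF4 then activates genes for amino acid uptake, synthesis and tRNA charging, together with DDIT3 (CHOP) and the feedback factors TRIB3 and PPP1R15A. Unfolded protein in the ER also activates the sensors IRE1, which splices the XBP1 mRNA, and ATF6, which is cut to release a transcription factor, and both raise chaperones such as HSPA5 (BiP) and the machinery that returns misfolded protein to the cytosol for destruction. Counts per gene show mRNA only: they report neither ATF4 protein nor XBP1 splicing.

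Total counts were 41107918 to 49803860 in the knockdown libraries and 40832825 to 49059114 in the controls. Levels below are depth-scaled read counts (CPM), on library sizes corrected by TMM. PAX8 stood at 17.4% of its control mean in siPAX8 and 25.2% in siDual cells, SOX17 at 13.0% in siSOX17 and 15.2% in siDual cells, and MECOM at 9.69% in siMECOM cells. The targets also differed where they were not aimed at. MECOM stood at 34.3% of controls in siSOX17, 37.9% in siDual, 75.2% in siPAX8 and 78.6% in siWT1 cells. SOX17 stood at 207% in siMECOM and 72.7% in siPAX8 cells, and near controls at 106% in siWT1 cells. PAX8 stood at 132% in siSOX17, 56.1% in siWT1 and 88.8% in siMECOM cells. WT1 stood at 0 and 0.019 CPM in siWT1 cells, 2.43% of its control mean of 0.394 CPM (0.33 to 0.43). The other knockdowns had 0.133 to 0.779 CPM. WT1 was thus close to 0 already in the controls, and siWT1 results refer to the pool by its name. The mitochondrially encoded share of counts was 7.91% to 11.0% in the 10 knockdown libraries and 5.34% to 6.13% in the 4 controls. Of 13 markers of serous ovarian epithelium none was at 0 in all libraries, although MSLN reached only 1.01 CPM, and they went both ways: 6 were called higher and 6 lower with siDual, 7 and 5 with siSOX17, 5 and 6 with siPAX8, 3 and 6 with siMECOM and 1 and 7 with siWT1. Of all genes tested, 28.9% were called higher and 27.3% lower with siDual, 27.2% and 25.5% with siSOX17 and 26.9% and 25.4% with siPAX8. With siMECOM the shares were 16.5% and 16.1%, and with siWT1 17.7% and 19.8%. The list holds the 3 targeted genes PAX8, SOX17 and MECOM. The keratins KRT7, KRT8 and KRT18 carried most of its level, with a sum of 17580 to 20170 CPM in siDual, 12270 to 12500 in siSOX17, 7679 to 10090 in siPAX8, 3711 to 4438 in siMECOM, 3176 to 3466 in siWT1 and 3359 to 4101 CPM in control cells. The other 7 markers summed to 611.6 to 1286 CPM in the knockdowns and 838.7 to 939.7 CPM in the controls. Fibroblast markers, 7 genes led by COL1A1, summed to 61.96 to 83.96 CPM in siPAX8, siSOX17 and siDual and 26.17 to 28.36 in siMECOM and siWT1 cells, against 35.38 to 45.64 CPM in controls. Leukocyte markers, 8 genes led by CD68, summed to 34.58 to 44.44 CPM in siPAX8, siSOX17 and siDual and 10.23 to 13.19 in siMECOM and siWT1 cells, against 18.98 to 22.84 CPM in controls, while the defining leukocyte marker PTPRC reached at most 0.133 CPM and MS4A1 was at 0 in all libraries. The 5 endothelial markers summed to 20.34 to 21.0 CPM in siPAX8 and 6.31 to 10.1 in the other knockdowns, against 8.82 to 10.9 CPM in controls. The part of mitochondrial share and of these markers in the results below was not tested, except that leaving the mitochondrial genes out of the counts gave 32 to 42 called members in each knockdown, against 31 to 42 with them.

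The promoters were searched for the sites through which the 2 arms are known to be activated, in the window from 250 bases before to 50 bases after each RefSeq start on GRCh38.p14, on both strands. A promoter was matched for 27 of the 32 amino acid genes and for all 15 ER genes. The CARE, TGATGNAA, which ATF4 binds with a C/EBP partner, was found in 5 of the 27 (AARS1, ASNS, CHAC1, SLC3A2 and SLC7A1) and in 1 of the 15 (HERPUD1), against 3.67% of all 27305 promoters. The ERSE, CCAAT followed after 9 bases of any kind by CCACG, bound by ATF6 with NF-Y, was in 5 of the 15 ER promoters (CALR, CRELD2, HSP90B1, HSPA5 and XBP1), in 0 of the 27 and in 0.0806% of all promoters. The ERSE-II, ATTGG followed after 1 base of any kind by CCACG, was in 3 of the 15 (HERPUD1, HYOU1 and SDF2L1), in 0 of the 27 and in 0.0549% of all. The UPRE, TGACGTGG, was in HYOU1 and ALDH18A1 and in 0.795% of all. In HYOU1 the UPRE overlaps an ERSE-II. A match is a description of the letters and not a bound site, and no match says only that these letters are not in this window.

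The 5 promoters below are shown because the genes they belong to went different ways in these cells, as described further on: ASNS and CHAC1 of the amino acid arm, HSPA5 with an ERSE, HERPUD1 with an ERSE-II and a CARE, and HYOU1 with 2 ERSE-II. Each is read 5′ to 3′ on the strand of the gene, and capitals mark the matches, which on the opposite strand appear as the reverse complement.
ASNS, chr7:97872359-97872658 (minus strand): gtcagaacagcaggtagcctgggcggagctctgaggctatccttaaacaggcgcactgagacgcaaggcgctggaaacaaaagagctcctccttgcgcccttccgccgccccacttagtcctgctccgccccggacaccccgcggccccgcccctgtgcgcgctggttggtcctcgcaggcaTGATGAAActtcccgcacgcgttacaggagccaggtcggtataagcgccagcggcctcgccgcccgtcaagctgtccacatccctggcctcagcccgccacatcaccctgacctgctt
CHAC1, chr15:40953221-40953520 (plus strand): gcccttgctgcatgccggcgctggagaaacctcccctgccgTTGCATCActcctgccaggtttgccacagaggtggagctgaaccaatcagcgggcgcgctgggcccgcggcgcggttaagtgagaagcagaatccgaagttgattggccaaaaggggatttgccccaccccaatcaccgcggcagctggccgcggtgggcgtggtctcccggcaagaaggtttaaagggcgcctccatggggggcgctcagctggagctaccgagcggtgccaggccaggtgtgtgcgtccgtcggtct
HSPA5, chr9:125241294-125241593 (minus strand): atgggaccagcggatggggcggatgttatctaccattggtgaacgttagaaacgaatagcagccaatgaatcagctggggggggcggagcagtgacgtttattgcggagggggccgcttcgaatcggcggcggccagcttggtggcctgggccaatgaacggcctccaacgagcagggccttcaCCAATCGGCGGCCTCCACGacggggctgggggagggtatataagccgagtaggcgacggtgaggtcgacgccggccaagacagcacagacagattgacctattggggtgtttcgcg
HERPUD1, chr16:56931892-56932191 (plus strand): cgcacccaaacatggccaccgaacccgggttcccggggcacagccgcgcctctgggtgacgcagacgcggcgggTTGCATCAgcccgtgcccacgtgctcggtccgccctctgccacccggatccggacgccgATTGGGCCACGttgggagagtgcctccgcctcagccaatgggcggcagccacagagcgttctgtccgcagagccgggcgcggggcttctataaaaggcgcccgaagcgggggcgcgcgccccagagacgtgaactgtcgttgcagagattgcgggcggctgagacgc
HYOU1, chr11:119057156-119057455 (minus strand): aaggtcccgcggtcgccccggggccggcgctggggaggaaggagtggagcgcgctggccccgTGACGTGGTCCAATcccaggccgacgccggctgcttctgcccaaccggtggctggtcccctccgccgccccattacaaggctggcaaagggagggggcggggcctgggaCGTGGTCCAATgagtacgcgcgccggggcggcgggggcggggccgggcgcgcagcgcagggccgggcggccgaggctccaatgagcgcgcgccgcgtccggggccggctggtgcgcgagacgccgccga

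Most amino acid genes were lower in each of the 5 knockdowns. The ER genes called went both ways with siPAX8, siSOX17 and siDual and were all lower with siMECOM and siWT1. In bulk RNA, fewer cells that express a gene and less of its RNA per cell cannot be told apart. Calls are made by the quasi-likelihood test of edgeR where p, adjusted over the 21032 genes by Benjamini-Hochberg, is below 0.05. Fold changes below are log2 with their standard error. With siPAX8, 5 amino acid genes were called higher and 21 lower, where 26.9% of all genes tested were called higher and 25.4% lower. With siSOX17, 4 were higher and 21 lower, against 27.2% and 25.5% of all genes. With siDual, 5 were higher and 24 lower, against 28.9% and 27.3%. With siMECOM, 2 were higher and 28 lower, against 16.5% and 16.1%. With siWT1, 1 was higher and 22 lower, against 17.7% and 19.8%. The median log2 fold change of the 32 genes was -0.37 with siPAX8, -0.56 with siSOX17, -0.74 with siDual, -0.79 with siMECOM and -0.32 with siWT1, where the median over all genes tested lay between -0.01 and 0.01.

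In the ER arm of 15 genes, 6 were called higher and 2 lower with siPAX8, 5 and 5 with siSOX17, and 6 and 3 with siDual. The siSOX17 counts lay near the 27.2% and 25.5% of all genes called, and the lower counts with siPAX8 and siDual under the 25.4% and 27.3% of all genes. The higher counts with siPAX8 and siDual stood against 26.9% and 28.9% of all genes. With siMECOM 0 were called higher and 12 lower, against 16.5% and 16.1% of all genes. With siWT1 0 were called higher and 8 lower, against 17.7% and 19.8%. The median of the 15 was 0.04 with siPAX8, -0.02 with siSOX17, 0.02 with siDual, -0.37 with siMECOM and -0.21 with siWT1. The 5 comparisons share the 4 control libraries, so their likeness is no separate evidence.

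**Figure D1:**
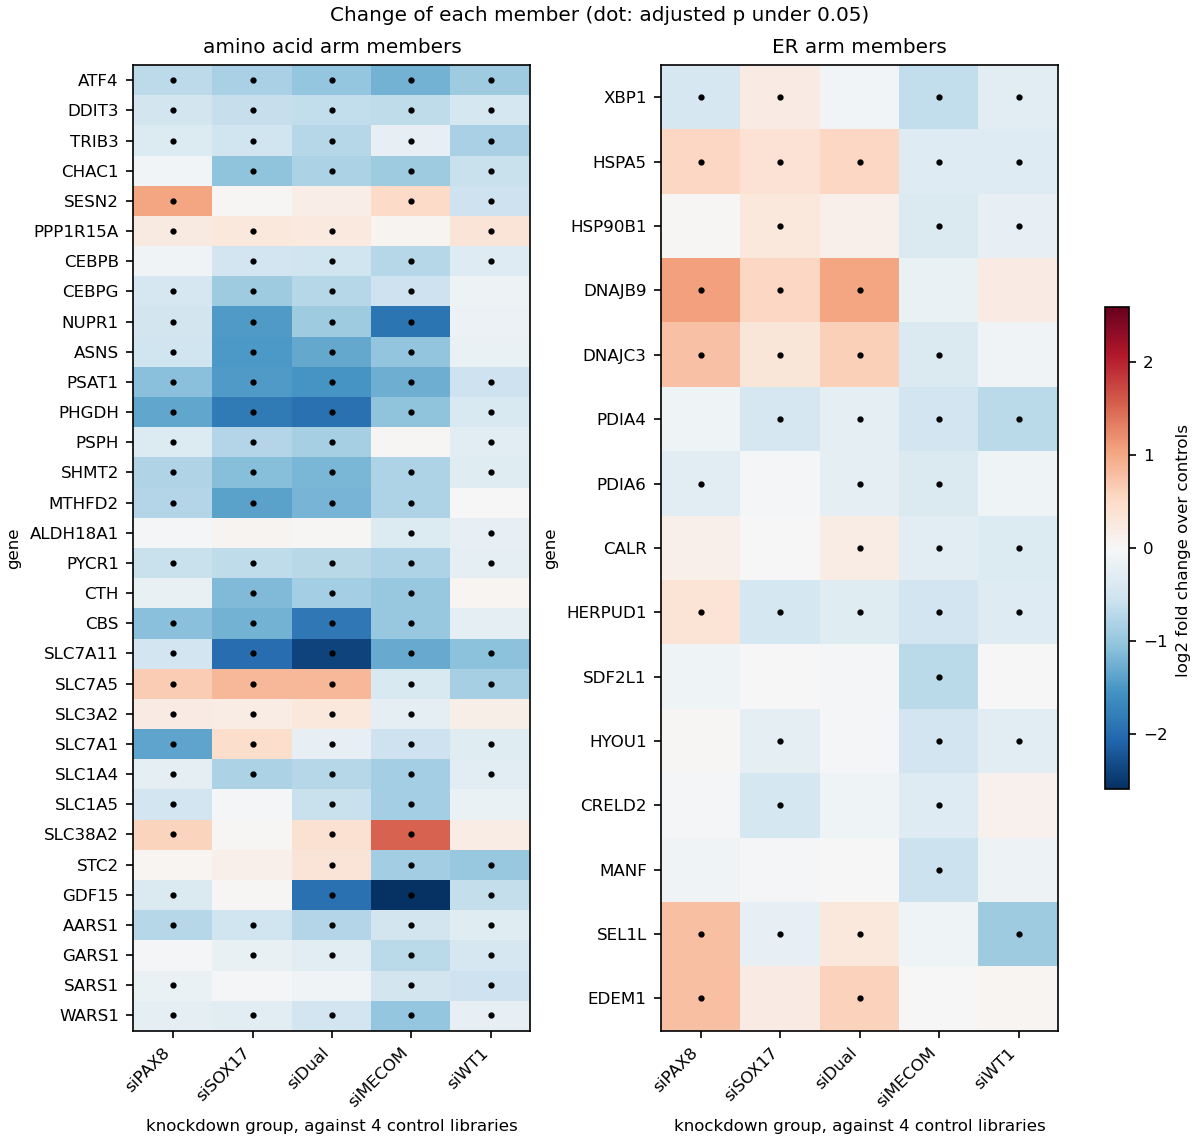
Log2 fold change of each of the 47 members (rows, by arm) in each knockdown over the 4 control libraries (columns), as colour, with calls marked. The amino acid rows are mostly below 0 in all 5 columns, while HSPA5, DNAJB9 and DNAJC3 are above 0 in siPAX8, siSOX17 and siDual and HSPA5 is below 0 in siMECOM and siWT1.

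Per length, the members span a wide range in control cells. CALR, the calcium-binding chaperone calreticulin, was the highest at 1479 ± 164 TPM, a level scaled by length and depth (SD, n = 4), followed by the glutamine carrier SLC1A5 at 409 ± 7.09 and glycyl-tRNA synthetase GARS1 at 382 ± 12.4 TPM. ATF4 ranked at place 4 with 356 ± 20.7 TPM and HSPA5 at place 5 with 341 ± 19.6 TPM. Their ranges over the control libraries overlapped, and they were not tested against each other. The lowest were SLC7A11 at 6.24 ± 1.23 TPM and CBS at 2.04 ± 0.17 TPM.

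Among the regulators, ATF4 (ENSG00000128272.14, chr22:39519695-39522685) was lower in every knockdown library than in any control. ATF4 stood at 219 and 213 CPM in siPAX8 cells, 196 and 189.7 CPM in siSOX17 cells and 167 and 176 CPM in siDual cells. It stood at 143 and 154 CPM in siMECOM cells and 174 and 189 CPM in siWT1 cells, against 326 and 342 with siNT1 and 362 and 358 with siNT2. All 10 knockdown libraries lay below all 4 controls, siMECOM the lowest and siPAX8 the highest. The log2 fold change was -0.68 ± 0.07, adjusted p = 7e-08 with siPAX8, -0.85 ± 0.07 with siSOX17, -1.01 ± 0.07 with siDual, -1.22 ± 0.07 with siMECOM and -0.93 ± 0.07 with siWT1. The adjusted p of the other 4 ran from 1.54e-10 to 4.62e-09. DDIT3, which encodes the stress factor CHOP, had 11.2 to 13.8 CPM in the knockdown libraries and 18.2 to 19.8 CPM in the controls. It fell in all 5 knockdowns, least with siWT1 (-0.47 ± 0.09, adjusted p = 0.000298) and most with siMECOM (-0.66 ± 0.09, adjusted p = 1.13e-05). Its locus overlaps MARS1 on the other strand, and without a known strand their reads cannot be separated.

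The feedback and partner genes did not move as ATF4 did in every knockdown. TRIB3, a pseudokinase that restrains ATF4, fell most with siWT1 (-0.85 ± 0.08, adjusted p = 1.27e-07) and siDual (-0.74 ± 0.08, adjusted p = 1.8e-07). CHAC1, which degrades glutathione, stood at 17.3 and 18.4 CPM in siPAX8 cells, among its controls at 16.7 to 20.4 CPM (-0.08 ± 0.12, adjusted p = 0.591). It stood at 9.10 and 9.29 CPM in siSOX17 cells (-1.04 ± 0.13, adjusted p = 1.1e-06). It also fell with siDual (-0.83 ± 0.12), siMECOM (-0.93 ± 0.12) and siWT1 (-0.58 ± 0.12). SESN2, a leucine sensor that holds back mTORC1, went against the arm in 2 knockdowns: SESN2 stood at 122 and 104 CPM in siPAX8 cells, 58.4 and 55.9 CPM in siSOX17 cells and 65.5 and 60.2 CPM in siDual cells. It stood at 83.0 and 74.1 CPM in siMECOM cells and 38.3 and 39.3 CPM in siWT1 cells, against 53.8 and 50.5 with siNT1 and 59.6 and 60.6 with siNT2. The siPAX8 and siMECOM libraries lay above all controls, the siWT1 libraries below all of them, and the siSOX17 and siDual libraries among or near them. SESN2 rose with siPAX8 (1.02 ± 0.07, adjusted p = 6.82e-10) and siMECOM (0.49 ± 0.07, adjusted p = 4.38e-05) and fell with siWT1 (-0.53 ± 0.08, adjusted p = 2.61e-05).

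Of the C/EBP partners of ATF4, CEBPB fell in siSOX17, siDual, siMECOM and siWT1 cells, most with siMECOM (-0.75 ± 0.09, adjusted p = 4.3e-06). CEBPG fell with siPAX8, siSOX17, siDual and siMECOM, most with siSOX17 (-0.93 ± 0.08, adjusted p = 1.6e-08). The siWT1 call of CEBPB (-0.34 ± 0.09, adjusted p = 0.0062) did not hold with siNT1 alone as control (log2 -0.27, adjusted p = 0.0525) and without siWT1 replicate 1 (log2 -0.14, adjusted p = 0.238). NUPR1, a small nuclear stress protein, stood at 4.67 and 5.42 CPM in siMECOM cells and 7.61 and 5.89 CPM in siSOX17 cells, against 16.0 to 23.9 CPM in controls. Its fold changes there were -1.89 ± 0.19, adjusted p = 2.99e-07 and -1.47 ± 0.19, adjusted p = 1.84e-06. PPP1R15A (GADD34), which recruits the phosphatase of eIF2alpha, stood at 29.6 to 37.0 CPM in siPAX8, siSOX17, siDual and siWT1 libraries, against 25.1 to 28.7 CPM in controls. It was called higher in these 4 knockdowns by 0.24 to 0.33. None of those 4 calls was firm. With siPAX8 the call did not hold with siNT2 alone as control (log2 0.21, adjusted p = 0.125), without siNT1 replicate 2 (log2 0.20, adjusted p = 0.123), without siNT2 replicate 1 (log2 0.24, adjusted p = 0.0596), without siNT2 replicate 2 (log2 0.24, adjusted p = 0.063), without siPAX8 replicate 1 (log2 0.28, adjusted p = 0.0686) and without siPAX8 replicate 2 (log2 0.20, adjusted p = 0.201). With siSOX17 it did not hold with siNT2 alone as control (log2 0.25, adjusted p = 0.0729), without siNT1 replicate 2 (log2 0.23, adjusted p = 0.0695) and without siSOX17 replicate 1 (log2 0.11, adjusted p = 0.452). With siDual it did not hold with siNT2 alone as control (log2 0.23, adjusted p = 0.0871), without siDual replicate 1 (log2 0.20, adjusted p = 0.201), without siNT1 replicate 2 (log2 0.22, adjusted p = 0.0848) and without siNT2 replicate 2 (log2 0.24, adjusted p = 0.0642), and with siWT1 it did not hold without siWT1 replicate 2 (log2 0.30, adjusted p = 0.0713).

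The enzymes that make serine, glycine and asparagine fell in most knockdowns. PHGDH stood at 149 and 135 CPM in siPAX8 cells, 100.3 and 100 CPM in siSOX17 cells and 101 and 87.7 CPM in siDual cells. It stood at 183 and 165 CPM in siMECOM cells and 250.5 and 295 CPM in siWT1 cells, against 337 and 376 with siNT1 and 354 and 375 with siNT2. PHGDH (ENSG00000092621.11, chr1:119659798-119744215), the first enzyme of serine synthesis, was lower than all controls in all 10 knockdown libraries, and siSOX17 and siDual cells kept the least. Its log2 fold change was -1.93 ± 0.09, adjusted p = 2.12e-12 with siDual, -1.85 ± 0.09 with siSOX17, -1.34 ± 0.09 with siPAX8, -1.05 ± 0.09 with siMECOM and -0.40 ± 0.08 with siWT1. PSAT1, the next enzyme, followed the same order of groups except that siMECOM was lower than siPAX8 (-1.54 ± 0.07 with siDual, -1.47 ± 0.07 with siSOX17, -1.28 ± 0.07 with siMECOM, -1.08 ± 0.07 with siPAX8, -0.54 ± 0.07 with siWT1). PSPH, the last step, fell with siDual (-0.87 ± 0.08, adjusted p = 3.12e-08) and siSOX17 (-0.76 ± 0.08, adjusted p = 2.29e-07). In siMECOM cells its 40.8 and 45.5 CPM overlapped its controls at 39.7 to 44.9 CPM (0.03 ± 0.08, adjusted p = 0.834).

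ASNS stood at 182 and 164 CPM in siPAX8 cells, 92.7 and 82.1 CPM in siSOX17 cells and 100.5 and 95.6 CPM in siDual cells. It stood at 122 and 118 CPM in siMECOM cells and 221 and 216 CPM in siWT1 cells, against 230.4 and 264 with siNT1 and 249.7 and 238 with siNT2. ASNS (ENSG00000070669.16, chr7:97852118-97872542), asparagine synthetase, was lowest in siSOX17 and siDual cells, and its siWT1 libraries lay just below the control range without being called. The fold changes were -1.49 ± 0.08, adjusted p = 1.95e-11 with siSOX17, -1.32 ± 0.08 with siDual, -1.03 ± 0.08 with siMECOM, -0.51 ± 0.08 with siPAX8 and -0.17 ± 0.07, adjusted p = 0.0914 with siWT1. The mitochondrial one-carbon enzymes SHMT2 and MTHFD2 fell with siPAX8, siSOX17, siDual and siMECOM, with fold changes of -1.20 to -0.79 for SHMT2 and -1.40 to -0.76 for MTHFD2. With siWT1 the fold change of SHMT2 was -0.32, and MTHFD2 stood at 160.1 and 143 CPM against 143 to 159 CPM in controls (-0.00 ± 0.07, adjusted p = 0.974). An antisense gene that overlaps MTHFD2 had 87.3 CPM against its 108 CPM on average over the libraries, and the reads of the pair cannot be told apart.

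Of the proline enzymes, PYCR1 fell in all 5 knockdowns, most with siMECOM (-0.80 ± 0.07, adjusted p = 3.32e-08), while ALDH18A1 was not called with siPAX8, siSOX17 or siDual and fell with siMECOM (-0.35 ± 0.06, adjusted p = 0.000388). Both the siWT1 call of PYCR1 (-0.26 ± 0.07) and that of ALDH18A1 (-0.21 ± 0.06) were weak. PYCR1 was not called without siWT1 replicate 1 (log2 -0.22, adjusted p = 0.0618). ALDH18A1 was not called with siNT1 alone as control (log2 -0.15, adjusted p = 0.131), without siNT2 replicate 2 (log2 -0.17, adjusted p = 0.06) and without siWT1 replicate 2 (log2 -0.20, adjusted p = 0.0824). The transsulfuration enzymes, which make cysteine from homocysteine, are low in these cells. CTH had 4.95 and 4.40 CPM in siSOX17 cells and 4.64 and 5.88 in siMECOM cells, against 10.0 to 10.8 CPM in controls. The fold changes were -1.16 ± 0.12, adjusted p = 9.21e-08 and -0.98 ± 0.11, adjusted p = 1.41e-06, while siWT1 cells had 10.8 and 10.8 CPM (0.05 ± 0.10, adjusted p = 0.761). CBS had 1.57 and 1.40 CPM in siDual cells, against 4.97 to 5.71 CPM in controls (-1.85 ± 0.16, adjusted p = 1.11e-08).

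The carriers did not move together. SLC7A11 stood at 14.4 and 18.3 CPM in siPAX8 cells, 6.47 and 5.33 CPM in siSOX17 cells and 4.58 and 4.18 CPM in siDual cells. It stood at 9.38 and 9.35 CPM in siMECOM cells and 13.2 and 9.02 CPM in siWT1 cells, against 23.3 and 18.9 with siNT1 and 28.8 and 22.1 with siNT2. SLC7A11, the cystine and glutamate exchanger, was below all controls in every knockdown library, and in siDual cells it showed the deepest loss of the 47 genes in that knockdown, -2.41 ± 0.17, adjusted p = 5.46e-10. The other fold changes were -1.97 ± 0.16 with siSOX17, -1.31 ± 0.15 with siMECOM, -1.06 ± 0.15 with siWT1 and -0.51 ± 0.14, adjusted p = 0.00595 with siPAX8. The siPAX8 call did not hold with siNT1 alone as control (log2 -0.37, adjusted p = 0.07) and without siPAX8 replicate 1 (log2 -0.34, adjusted p = 0.128).

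SLC7A5 (LAT1), which imports leucine and other large neutral amino acids, went the other way in the PAX8 and SOX17 knockdowns. SLC7A5 stood at 860.1 and 953 CPM in siPAX8 cells, 1023 and 1066 CPM in siSOX17 cells and 1068 and 1041 CPM in siDual cells. It stood at 476 and 403 CPM in siMECOM cells and 324 and 314 CPM in siWT1 cells, against 612 and 557 with siNT1 and 559.5 and 579.7 with siNT2. The siPAX8, siSOX17 and siDual libraries all lay above the controls and the siMECOM and siWT1 libraries all below. SLC7A5 rose with siSOX17 (0.86 ± 0.08, adjusted p = 1.58e-08), siDual (0.87 ± 0.08) and siPAX8 (0.65 ± 0.08) and fell with siWT1 (-0.86 ± 0.08, adjusted p = 1.21e-07) and siMECOM (-0.39 ± 0.08, adjusted p = 0.000715). The siMECOM call missed the threshold without siMECOM replicate 2 (log2 -0.28, adjusted p = 0.0501). Its heavy chain SLC3A2, which SLC7A11 also needs, moved less. It was called higher with siDual (0.27 ± 0.07, adjusted p = 0.00167), siPAX8 (0.22 ± 0.07) and siSOX17 (0.20 ± 0.07) and lower with siMECOM (-0.26 ± 0.07). The siPAX8 call of SLC3A2 did not hold without siPAX8 replicate 2 (log2 0.20, adjusted p = 0.0796). The siSOX17 call did not hold without siNT1 replicate 2 (log2 0.17, adjusted p = 0.0608) and without siSOX17 replicate 1 (log2 0.14, adjusted p = 0.186), and the siMECOM call did not hold without siMECOM replicate 2 (log2 -0.24, adjusted p = 0.0786).

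SLC7A1, the carrier of arginine and lysine, was the member on which the PAX8 and SOX17 knockdowns stood furthest apart. SLC7A1 stood at 64.8 and 70.5 CPM in siPAX8 cells, 219 and 259 CPM in siSOX17 cells and 149 and 155 CPM in siDual cells. It stood at 120 and 122 CPM in siMECOM cells and 141 and 139.9 CPM in siWT1 cells, against 173 and 175 with siNT1 and 179.7 and 174 with siNT2. The siPAX8 libraries were the lowest of all and the siSOX17 libraries the highest, with the siDual libraries between them and below the controls. SLC7A1 fell with siPAX8 (-1.37 ± 0.08, adjusted p = 1.93e-11), rose with siSOX17 (0.45 ± 0.07, adjusted p = 2.29e-05) and fell with siMECOM (-0.53 ± 0.07) and siWT1 (-0.32 ± 0.07). The siDual value was -0.21 ± 0.07, adjusted p = 0.0189, a call that did not hold with siNT1 alone as control (log2 -0.20, adjusted p = 0.0543), without siDual replicate 1 (log2 -0.18, adjusted p = 0.141) and without siDual replicate 2 (log2 -0.24, adjusted p = 0.052).

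SLC38A2 (SNAT2), an importer of small neutral amino acids that rises when they are scarce, was 1 of 2 amino acid genes called higher in siMECOM cells, beside SESN2. SLC38A2 stood at 255 and 299.5 CPM in siPAX8 cells, 189 and 186 CPM in siSOX17 cells and 238 and 247 CPM in siDual cells. It stood at 487 and 579 CPM in siMECOM cells and 220 and 199 CPM in siWT1 cells, against 179.8 and 190.5 with siNT1 and 199 and 169.7 with siNT2. Both siMECOM libraries stood above every other library. SLC38A2 rose with siMECOM (1.53 ± 0.08, adjusted p = 8.7e-11), siPAX8 (0.59 ± 0.09, adjusted p = 1.01e-05) and siDual (0.39 ± 0.09, adjusted p = 0.000637) and was near its controls with siSOX17 (0.02 ± 0.09). The glutamine carrier SLC1A5 fell with siMECOM (-0.88 ± 0.08, adjusted p = 6.66e-08), siDual (-0.58 ± 0.08) and siPAX8 (-0.51 ± 0.08), while in siSOX17 cells its 479.9 and 547 CPM overlapped its controls at 510.1 to 570.5 CPM. SLC1A4, which carries serine and alanine, fell with siMECOM (-0.88 ± 0.09, adjusted p = 2.92e-07), siSOX17 (-0.83 ± 0.09) and siDual (-0.73 ± 0.09).

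**Figure D2:**
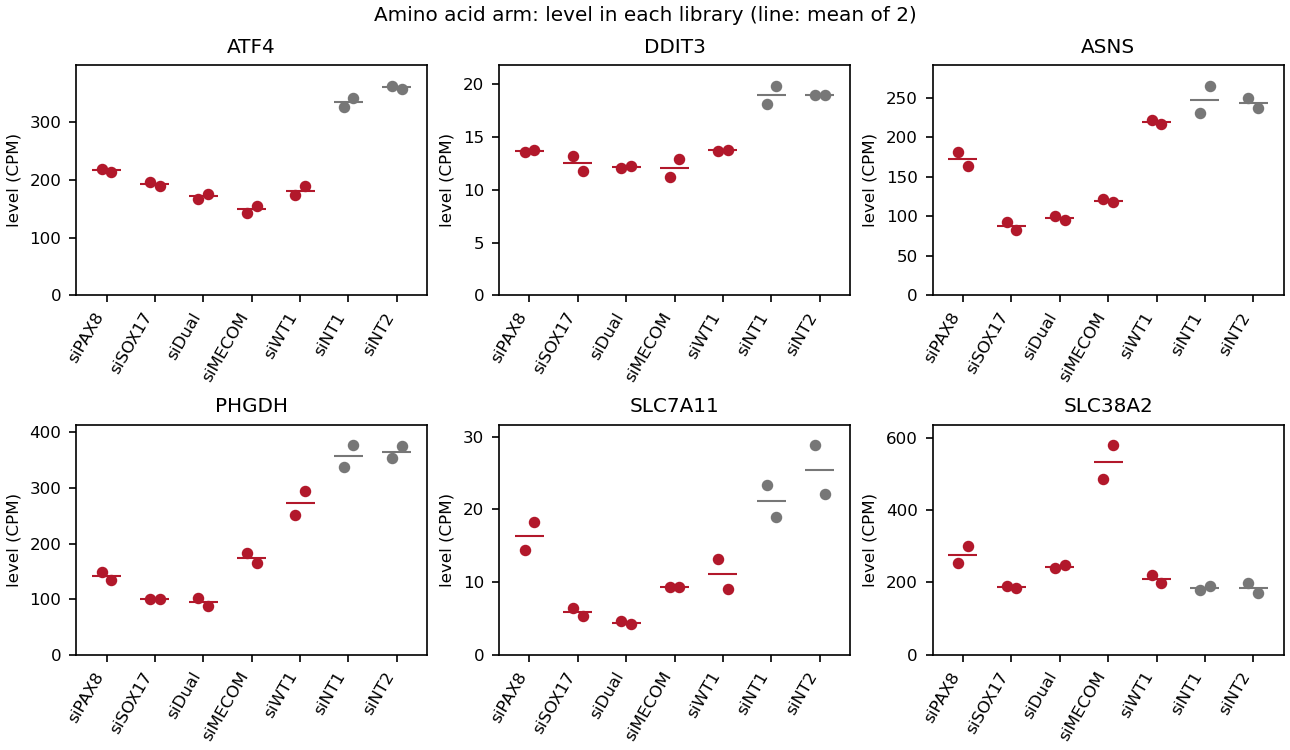
CPM of 6 amino acid genes in each of the 14 libraries (points), with the mean of each group of 2 as a line, knockdowns in red and controls in grey, on axes that start at 0. ATF4 and DDIT3 are below all controls in every knockdown, ASNS and PHGDH are lowest in siSOX17 and siDual cells, and SLC38A2 stands at 487 and 579 CPM in siMECOM cells.

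The 2 secreted stress proteins both fell with siMECOM and siWT1 and went opposite ways with siDual. GDF15 stood at 227 and 189 CPM in siPAX8 cells, 328 and 226 CPM in siSOX17 cells and 80.9 and 60.05 CPM in siDual cells. It stood at 49.1 and 42.1 CPM in siMECOM cells and 165 and 186 CPM in siWT1 cells, against 263 and 214 with siNT1 and 323 and 292 with siNT2. GDF15, a stress cytokine, lay far below all controls in siDual and siMECOM cells and among or near them in siPAX8 and siSOX17 cells. It fell with siMECOM (-2.57 ± 0.15, adjusted p = 3.12e-10), siDual (-1.94 ± 0.15, adjusted p = 1.56e-09) and siWT1 (-0.63 ± 0.14, adjusted p = 0.00132), and its siSOX17 value was 0.04 ± 0.13, adjusted p = 0.845. Its siPAX8 value of -0.38 ± 0.14, adjusted p = 0.0249 rested on single libraries: it was not called with siNT1 alone as control (log2 -0.20, adjusted p = 0.317), without siNT1 replicate 1 (log2 -0.30, adjusted p = 0.0921), without siNT2 replicate 1 (log2 -0.34, adjusted p = 0.0578) and without siPAX8 replicate 2 (log2 -0.25, adjusted p = 0.249). STC2, stanniocalcin 2, stood at 73.2 and 84.7 CPM in siMECOM and 73.8 and 76.9 CPM in siWT1 cells, against 140.5 to 156 CPM in controls. It fell in both (-0.91 ± 0.09, adjusted p = 2.25e-07 and -0.98 ± 0.09, adjusted p = 8.34e-08) and rose with siDual, where it had 186 and 187 CPM (0.33 ± 0.08, adjusted p = 0.0025).

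All 4 tRNA synthetases were called lower with siMECOM and siWT1, where 16.1% and 19.8% of all genes tested were called lower. With siPAX8, siSOX17 and siDual 3 of the 4 were, against 25.4%, 25.5% and 27.3% of all genes. Of 16 other cytosolic tRNA synthetases, described further on, 0 rose and 11 fell with siMECOM, but 4 rose and 3 fell with siWT1. AARS1, for alanine, fell in all 5 knockdowns, with fold changes of -0.77 with siDual to -0.31 with siWT1. Its siPAX8 and siDual libraries were the lowest at 160.2 to 170.4 CPM, against 252 to 303 CPM in controls. WARS1, for tryptophan, fell most with siMECOM, where it had 127 and 116 CPM against 231 to 255 CPM in controls (-1.01 ± 0.07, adjusted p = 3.69e-09). GARS1, for glycine, fell with siMECOM (-0.70 ± 0.07, adjusted p = 1.77e-07) and siWT1 (-0.44 ± 0.07, adjusted p = 4.09e-05) and was not called with siPAX8 (-0.03 ± 0.07). SARS1, for serine, fell with siWT1 (-0.55 ± 0.07, adjusted p = 8.08e-06) and siMECOM (-0.48 ± 0.07) and was not called with siSOX17 (-0.03 ± 0.07) or siDual (-0.10 ± 0.07).

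Across the arm, most of these calls held under every alternative setting. Of the 26 amino acid calls with siPAX8, 8 ended when a single library was left out (GDF15, NUPR1, PPP1R15A, SARS1, SLC1A4, SLC3A2, SLC7A11 and WARS1). Those that ended were 3 of 25 with siSOX17 (GARS1, PPP1R15A and SLC3A2), 2 of 29 with siDual (PPP1R15A and SLC7A1), 3 of 30 with siMECOM (SLC3A2, SLC7A5 and TRIB3) and 7 of 23 with siWT1 (ALDH18A1, CEBPB, PPP1R15A, PSPH, PYCR1, SLC1A4 and WARS1).

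In the ER arm, HSPA5 (ENSG00000044574.7, chr9:125234853-125241330), the central chaperone BiP and the gene most used to read this response, rose in the 3 knockdowns aimed at PAX8 or SOX17 and fell in the other 2. HSPA5 stood at 727 and 769.5 CPM in siPAX8 cells, 648 and 692 CPM in siSOX17 cells and 715 and 783 CPM in siDual cells. It stood at 396 and 422 CPM in siMECOM cells and 409.9 and 403 CPM in siWT1 cells, against 486 and 543 with siNT1 and 506 and 529 with siNT2. The siPAX8, siSOX17 and siDual libraries lay above all controls and the siMECOM and siWT1 libraries below all of them. The fold changes were 0.54 ± 0.07, adjusted p = 3.03e-06 with siPAX8, 0.38 ± 0.07, adjusted p = 0.000178 with siSOX17 and 0.54 ± 0.07, adjusted p = 2.54e-06 with siDual. They were -0.34 ± 0.07, adjusted p = 0.00153 with siMECOM and -0.34 ± 0.07, adjusted p = 0.00101 with siWT1. XBP1 stood at 195 and 182 CPM in siPAX8 cells, 294 and 302 CPM in siSOX17 cells and 245 and 244 CPM in siDual cells. It stood at 169 and 161 CPM in siMECOM cells and 208 and 218 CPM in siWT1 cells, against 242 and 248 with siNT1 and 258 and 280.5 with siNT2. XBP1, the transcription factor whose mRNA IRE1 splices, was lowest in siMECOM and siPAX8 cells and highest in siSOX17 cells. It fell with siMECOM (-0.64 ± 0.07, adjusted p = 5.64e-07), siPAX8 (-0.45 ± 0.07, adjusted p = 1.33e-05) and siWT1 (-0.27 ± 0.07, adjusted p = 0.00321) and was not called with siDual (-0.07 ± 0.07, adjusted p = 0.366). The siSOX17 call (0.22 ± 0.06, adjusted p = 0.00837) did not hold with siNT2 alone as control (log2 0.15, adjusted p = 0.113) and without siSOX17 replicate 2 (log2 0.20, adjusted p = 0.0653).

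The J-domain partners of HSPA5 rose with siPAX8 and siDual. DNAJB9 stood at 57.3 and 68.2 CPM in siPAX8 cells, 43.8 and 43.1 CPM in siSOX17 cells and 55.6 and 65.7 CPM in siDual cells. It stood at 25.6 and 27.8 CPM in siMECOM cells and 35.4 and 34.4 CPM in siWT1 cells, against 25.1 and 28.3 with siNT1 and 32.3 and 35.0 with siNT2. DNAJB9 (ERdj4) rose with siPAX8 (1.06 ± 0.08, adjusted p = 2.62e-09), siDual (1.02 ± 0.08, adjusted p = 4.73e-09) and siSOX17 (0.54 ± 0.09, adjusted p = 3.14e-05). Its siMECOM and siWT1 libraries overlapped the controls (-0.17 ± 0.09, adjusted p = 0.161 and 0.22 ± 0.09, adjusted p = 0.0552). It overlaps PNPLA8 and THAP5, which averaged 58.2 and 33.1 CPM against 41.3 CPM for DNAJB9. DNAJC3 (p58IPK) had 74.5 and 96.4 CPM in siPAX8 and 71.6 and 81.6 CPM in siDual cells, against 43.7 to 54.3 CPM in controls. It rose in both (0.77 ± 0.10, adjusted p = 3.28e-06 and 0.61 ± 0.10, adjusted p = 4.54e-05). Its siSOX17 rise (0.31 ± 0.10) was not called with siNT2 alone as control (log2 0.22, adjusted p = 0.145), without siNT1 replicate 1 (log2 0.25, adjusted p = 0.0728), without siNT2 replicate 2 (log2 0.27, adjusted p = 0.0571), without siSOX17 replicate 1 (log2 0.31, adjusted p = 0.0832) and without siSOX17 replicate 2 (log2 0.30, adjusted p = 0.0848). Its siMECOM fall (-0.37 ± 0.11) was not called with siNT1 alone as control (log2 -0.29, adjusted p = 0.0908) and without siMECOM replicate 1 (log2 -0.20, adjusted p = 0.278).

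Among the folding factors PDIA4, PDIA6, HYOU1, HSP90B1 and CALR, the calls upward were HSP90B1 with siSOX17 and CALR with siDual. PDIA4, a disulfide isomerase, had 154 and 169.5 CPM in siWT1, 171 and 199 in siMECOM and 200.4 and 184 in siSOX17 cells, against 232 to 319 CPM in controls. It fell in all 3 (-0.69 ± 0.10, adjusted p = 2.13e-05, -0.50 ± 0.10, adjusted p = 0.000647 and -0.44 ± 0.10, adjusted p = 0.000895). PDIA4 was also called lower with siDual (-0.26 ± 0.10, adjusted p = 0.033), a call that ended when 1 library was left out. PDIA6, another isomerase, fell with siMECOM (-0.37 ± 0.07, adjusted p = 0.000442), siPAX8 (-0.30 ± 0.07) and siDual (-0.26 ± 0.07). The last 2 were not called with siNT1 alone as control (adjusted p = 0.0817 and 0.176). HYOU1, the nucleotide exchange factor of HSPA5, fell with siMECOM (-0.50 ± 0.08, adjusted p = 6.07e-05) and was near its controls with siPAX8 (0.04 ± 0.08) and siDual (-0.04 ± 0.08). It was also called lower with siSOX17 (-0.23 ± 0.08, adjusted p = 0.0173) and siWT1, and both calls ended when 1 library was left out. HSP90B1 (GRP94) had 702 and 714 CPM in siSOX17 cells, against 477 to 693 CPM in controls. That rise (0.28 ± 0.08, adjusted p = 0.00524) missed the threshold with siNT2 alone as control (log2 0.09, adjusted p = 0.442). CALR stood at 1544 to 1876 CPM in siPAX8, siSOX17 and siDual libraries and 1176 to 1366 CPM in siMECOM and siWT1 libraries, against 1341 to 1702 CPM in controls. It was called higher with siDual (0.20 ± 0.08, adjusted p = 0.0345), where its 1681 and 1876 CPM overlapped the controls. That call did not hold with siNT2 alone as control (log2 0.07, adjusted p = 0.527), without siDual replicate 2 (log2 0.12, adjusted p = 0.362), without siNT1 replicate 1 (log2 0.16, adjusted p = 0.122), without siNT2 replicate 1 (log2 0.20, adjusted p = 0.0531), without siNT2 replicate 2 (log2 0.17, adjusted p = 0.0996) and without mitochondrial genes (log2 0.18, adjusted p = 0.0543). Its siWT1 value (-0.35 ± 0.08, adjusted p = 0.00152) was not called with siNT1 alone as control (log2 -0.23, adjusted p = 0.062). CALR with siMECOM and HSP90B1 with siMECOM and siWT1 were also called lower, and each of these calls ended when 1 library was left out.

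The small ER proteins SDF2L1, CRELD2 and MANF, which are known as sensitive markers of ER stress, were at control level or below it. MANF had 37.3 and 38.8 CPM in siMECOM cells, against 50.6 to 60.4 CPM in controls (-0.56 ± 0.08, adjusted p = 1.15e-05), and SDF2L1 had 38.9 and 37.1 against 56.6 to 76.3 CPM (-0.71 ± 0.11, adjusted p = 6.09e-05). In siPAX8, siSOX17 and siDual cells the fold changes of SDF2L1 and MANF lay between -0.11 and 0.02 and none was called. CRELD2 fell with siSOX17 (-0.45 ± 0.11, adjusted p = 0.00182), and its siMECOM value (-0.34 ± 0.11) was not called with siNT1 alone as control (log2 -0.22, adjusted p = 0.199), without siMECOM replicate 1 (log2 -0.30, adjusted p = 0.141), without siMECOM replicate 2 (log2 -0.39, adjusted p = 0.0677) and without siNT2 replicate 2 (log2 -0.27, adjusted p = 0.053).

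The disposal factors SEL1L and HERPUD1 were called higher with siPAX8 than with siSOX17, siMECOM or siWT1. EDEM1 was too, but those calls ended when 1 library was left out. None of the 3 was called between siMECOM and siSOX17 cells. SEL1L stood at 128 and 150 CPM in siPAX8 cells, 67.0 and 72.1 CPM in siSOX17 cells and 95.2 and 102 CPM in siDual cells. It stood at 70.8 and 79.7 CPM in siMECOM cells and 43.2 and 41.6 CPM in siWT1 cells, against 77.8 and 88.7 with siNT1 and 83.4 and 73.5 with siNT2. SEL1L, the partner of the ubiquitin ligase HRD1, was above all controls in siPAX8 cells and below them in siWT1 cells. It rose with siPAX8 (0.78 ± 0.08, adjusted p = 1.18e-07) and fell with siWT1 (-0.93 ± 0.09, adjusted p = 1.16e-07). The siDual rise (0.28 ± 0.08) was not called without siDual replicate 2 (log2 0.24, adjusted p = 0.0853), and the siSOX17 fall (-0.22 ± 0.08) was not called with siNT2 alone as control (log2 -0.17, adjusted p = 0.151), without siNT1 replicate 2 (log2 -0.17, adjusted p = 0.132), without siNT2 replicate 1 (log2 -0.17, adjusted p = 0.119), without siSOX17 replicate 1 (log2 -0.17, adjusted p = 0.245) and without siSOX17 replicate 2 (log2 -0.27, adjusted p = 0.0576). HERPUD1, which recruits that ligase, had 67.7 and 68.3 CPM in siPAX8 cells, 40.2 and 36.8 in siSOX17 and 42.0 and 42.7 in siDual cells, against 47.7 to 58.4 CPM in controls. It rose with siPAX8 (0.36 ± 0.07, adjusted p = 0.000162) and fell with siSOX17 (-0.46 ± 0.07, adjusted p = 2.23e-05), siDual (-0.32 ± 0.07, adjusted p = 0.000663), siMECOM (-0.49 ± 0.07) and siWT1 (-0.33 ± 0.07). EDEM1, which hands misfolded glycoproteins over for disposal, rose with siPAX8 (0.79 ± 0.17, adjusted p = 0.000571), where its libraries at 26.6 and 38.7 CPM lay above controls at 13.6 to 26.3 CPM. Its siDual rise (0.60 ± 0.17) was not called without siDual replicate 2 (log2 0.53, adjusted p = 0.0622).

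**Figure D3:**
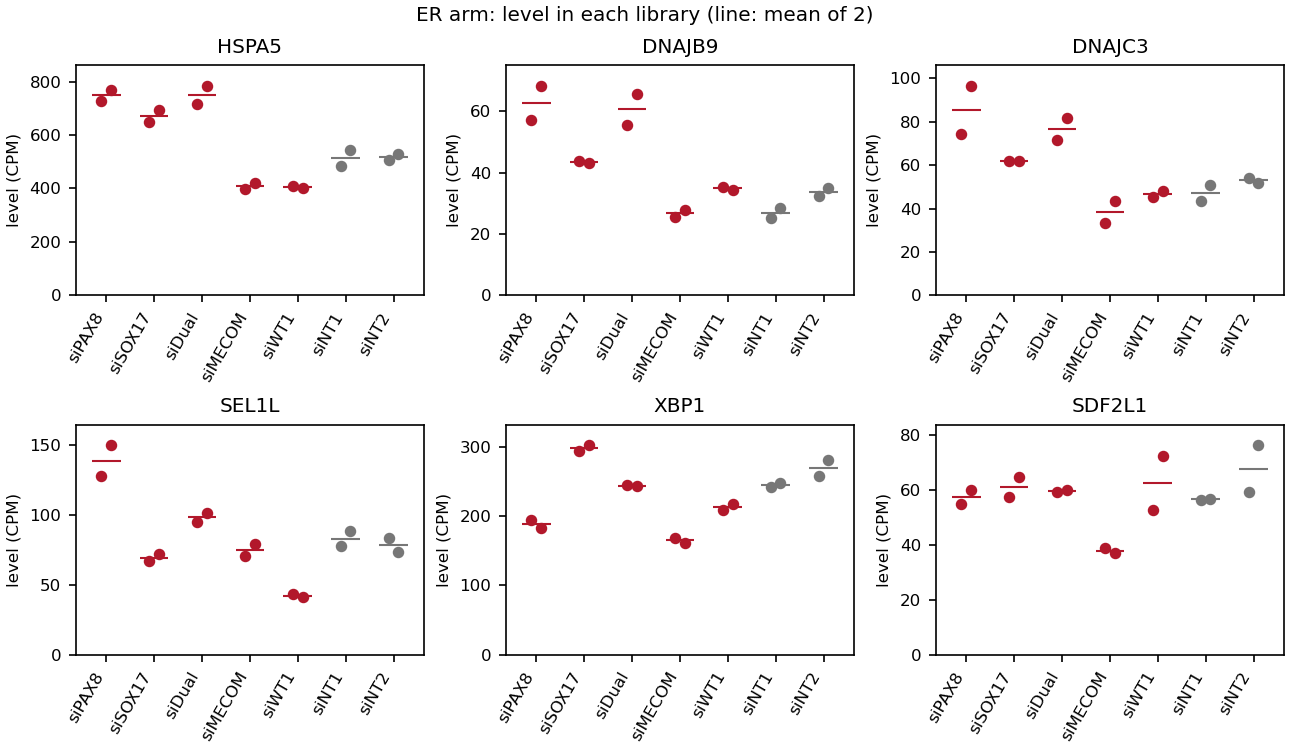
CPM of 6 ER genes in each of the 14 libraries (points), with the mean of each group of 2 as a line, knockdowns in red and controls in grey, on axes that start at 0. HSPA5 is above all controls in siPAX8, siSOX17 and siDual cells and below them in siMECOM and siWT1 cells, and within the controls the siNT1 libraries sit below the siNT2 libraries for several genes.

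The 2 control pools were also set against each other. Between siNT1 and siNT2, 0 of the 47 members were called by edgeR, where 0.3% of all genes tested were, while 9 members had an unadjusted p under 0.05, where 7.65% of all genes had one, and DESeq2 called 1. In 12 of the 15 ER genes both siNT1 libraries lay below both siNT2 libraries, where 18.1% of all genes tested did, and the median of the 15 was -0.19. HSP90B1 showed the smallest adjusted p, with 477 and 544 CPM with siNT1 and 693 and 636 CPM with siNT2 (-0.38 ± 0.09, adjusted p = 0.104). A single control pool, which leaves 2 control libraries in place of 4, gave other ER counts in some comparisons. With siNT2 alone 2 ER genes were called higher with siSOX17 in place of 5, and with siNT1 alone 5 were, while the calls over all genes were 9808 and 10097 in place of 11069. With siNT1 alone 5 ER genes were called lower with siWT1 in place of 8, and with siNT2 alone 9 were, while the calls over all genes were 6498 and 6718 in place of 7884. Without siSOX17 replicate 2 the higher ER calls with siSOX17 were 3, without siSOX17 replicate 1 the lower ones were 3 in place of 5, and without siDual replicate 2 the higher ones with siDual were 3 in place of 6.

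Set directly against each other, the PAX8 and SOX17 knockdowns differed in both arms. In siPAX8 relative to siSOX17 cells, 15 amino acid genes were higher and 4 lower and 8 ER genes were higher and 3 lower, where 17.6% of all genes tested were called higher and 19.8% lower. The largest differences upward were SLC7A11 (1.47 ± 0.18, adjusted p = 2.55e-06), NUPR1 (1.00 ± 0.21, adjusted p = 0.000763) and SESN2 (0.99 ± 0.09, adjusted p = 4.08e-08) in the amino acid arm. Among ER genes they were SEL1L (1.00 ± 0.10, adjusted p = 1.24e-07) and HERPUD1 (0.82 ± 0.08, adjusted p = 1.54e-07). The largest downward were SLC7A1 (-1.82 ± 0.09, adjusted p = 6.38e-12), SLC1A5 (-0.47 ± 0.09) and XBP1 (-0.66 ± 0.08, adjusted p = 1.02e-06). ATF4 itself was not called between them (0.17 ± 0.08, adjusted p = 0.0953). The calls of EDEM1 (0.58 ± 0.20), GDF15 (-0.41 ± 0.15), HSP90B1 (-0.25 ± 0.09) and PDIA6 (-0.26 ± 0.08) ended when single libraries of these 2 groups were left out, with adjusted p up to 0.361, 0.617, 0.249 and 0.145. With siPAX8 replicate 2 left out the ER genes called higher were 3 in place of 8.

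The siDual cells were also set against each single knockdown. Against siPAX8, siDual cells had 1 amino acid gene higher and 19 lower and 1 ER gene higher and 2 lower, where 11.0% and 8.55% of all genes tested were called higher and lower. The gene that was higher was SLC7A1 (1.17 ± 0.08, adjusted p = 1.22e-08), and the largest decreases were SLC7A11 (-1.90 ± 0.19, adjusted p = 5.4e-07), GDF15 (-1.56 ± 0.16, adjusted p = 9.54e-07) and SESN2 (-0.85 ± 0.09, adjusted p = 1.04e-06). In the ER arm XBP1 was higher (0.37 ± 0.08, adjusted p = 0.0014) and HERPUD1 (-0.68 ± 0.08, adjusted p = 4.95e-06) and SEL1L (-0.50 ± 0.10, adjusted p = 0.00088) lower. Against siSOX17, siDual cells had 1 amino acid gene higher and 5 lower and 2 ER genes higher and 1 lower, where 7.85% and 7.82% of all genes were, so that the increases lay near the background. GDF15 (-1.98 ± 0.16, adjusted p = 6.29e-08) and SLC7A1 (-0.66 ± 0.08, adjusted p = 1.39e-05) were lower and SEL1L higher (0.50 ± 0.10, adjusted p = 0.00119). The calls of CBS, SLC38A2, XBP1 and DNAJB9 in that comparison ended without single libraries, with adjusted p up to 0.222, 0.107, 0.0839 and 0.0639, and the 9 calls became 4 without siDual replicate 2 and 5 without siSOX17 replicate 2.

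In siMECOM cells every ER gene that differed from siSOX17 or siPAX8 cells was lower. Against siSOX17, 11 amino acid genes were higher and 11 lower and 0 ER genes were higher and 10 lower, where 24.5% and 23.9% of all genes tested were called higher and lower. SLC38A2 (1.51 ± 0.10, adjusted p = 5.82e-10), PHGDH (0.80 ± 0.10, adjusted p = 1.64e-06) and PSPH (0.78 ± 0.09) were higher. GDF15 (-2.61 ± 0.17, adjusted p = 2.27e-10), SLC7A5 (-1.25 ± 0.09, adjusted p = 1.51e-09) and STC2 (-1.05 ± 0.10) were lower. XBP1 (-0.85 ± 0.08, adjusted p = 2.34e-08), HSPA5 (-0.71 ± 0.08) and DNAJB9 (-0.70 ± 0.10) were the largest ER decreases. Against siPAX8, 5 amino acid genes were higher and 19 lower and 0 ER genes were higher and 14 lower, where 24.0% and 23.1% of all genes were. SLC38A2 (0.94 ± 0.10, adjusted p = 2.63e-07), SLC7A1 (0.84 ± 0.08) and PSPH (0.37 ± 0.09) were higher. GDF15 (-2.19 ± 0.16, adjusted p = 1.88e-09), NUPR1 (-1.42 ± 0.21) and SLC7A5 (-1.04 ± 0.09) were lower. Among ER genes DNAJB9 (-1.23 ± 0.10, adjusted p = 7.03e-09), DNAJC3 (-1.14 ± 0.12) and SEL1L (-0.89 ± 0.10) were the largest decreases. Without siPAX8 replicate 2 the amino acid genes called higher were 3 in place of 5.

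Most amino acid genes that differed between siWT1 and siMECOM cells were higher with siWT1. Against siMECOM, 20 amino acid genes were higher and 5 lower and 7 ER genes were higher and 1 lower, where 21.3% and 23.9% of all genes tested were called higher and lower. GDF15 (1.94 ± 0.16, adjusted p = 1.7e-08), NUPR1 (1.75 ± 0.21, adjusted p = 1.59e-06) and CTH (1.03 ± 0.12, adjusted p = 1.99e-06) were higher. SLC38A2 (-1.35 ± 0.10, adjusted p = 4.7e-09), SESN2 (-1.02 ± 0.09, adjusted p = 2.93e-08) and TRIB3 (-0.64 ± 0.09) were lower. Among ER genes SDF2L1 (0.72 ± 0.12, adjusted p = 0.000111) and MANF (0.44 ± 0.09) were higher and SEL1L lower (-0.83 ± 0.10, adjusted p = 1.51e-06). The call of CRELD2 (0.45 ± 0.12) did not hold without siWT1 replicate 2 (log2 0.24, adjusted p = 0.156). The higher ER calls were 4 in place of 7 without siMECOM replicate 1 and 4 without siWT1 replicate 2. Against siPAX8, 11 amino acid genes were higher and 11 lower and 0 ER genes were higher and 10 lower, where 27.8% and 29.5% of all genes were. SLC7A1 (1.05 ± 0.08, adjusted p = 3.05e-09), PHGDH (0.94 ± 0.10) and CBS (0.84 ± 0.16) were higher. SESN2 (-1.54 ± 0.09, adjusted p = 3.05e-11), SLC7A5 (-1.51 ± 0.09) and STC2 (-1.03 ± 0.10) were lower. In the ER arm SEL1L (-1.71 ± 0.10, adjusted p = 3.17e-11), HSPA5 (-0.88 ± 0.08) and DNAJC3 (-0.87 ± 0.12) were the largest decreases.

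Whether the PAX8 and SOX17 knockdowns add up was tested on the log2 scale: the siPAX8 and siSOX17 effects were subtracted from the siDual effect, and 0 means that the single effects sum. In the amino acid arm 12 genes were called above 0 and 3 below it, and in the ER arm 0 above and 3 below, where 12.0% of all genes tested were above and 13.0% below. The 12 had fallen in both single knockdowns or, for SLC7A1, in siPAX8, and fell in siDual cells by less than the sum. PHGDH had fold changes of -1.93 in siDual cells and -1.34 and -1.85 in the single knockdowns, a departure of 1.26 ± 0.13, adjusted p = 9.5e-07. PSAT1 departed by 1.02 ± 0.10, adjusted p = 8.3e-07 and ATF4 by 0.51 ± 0.10, adjusted p = 0.000835. GDF15 went the other way, with fold changes of -1.94 in siDual cells and -0.38 and 0.04 in the single knockdowns, a departure of -1.60 ± 0.20, adjusted p = 9.79e-06. SESN2, high in siPAX8 cells alone, departed by -0.88 ± 0.11, adjusted p = 1.27e-05, and SLC7A5 and DNAJB9, which rose in all 3, by -0.64 ± 0.12, adjusted p = 0.000478 and -0.58 ± 0.13, adjusted p = 0.00252. The departure of SLC7A11 was not called (0.07 ± 0.25, adjusted p = 0.871). Of the other calls, NUPR1 (1.02 ± 0.27) was not called without siSOX17 replicate 2 (log2 0.84, adjusted p = 0.0601). HSPA5 (-0.38 ± 0.11) was not called without siDual replicate 1 (log2 -0.31, adjusted p = 0.0938), without siPAX8 replicate 2 (log2 -0.34, adjusted p = 0.0639) and without siSOX17 replicate 2 (log2 -0.33, adjusted p = 0.0696). DDIT3 (0.44 ± 0.14) was not called without siDual replicate 2 (log2 0.43, adjusted p = 0.0651), without siPAX8 replicate 1 (log2 0.43, adjusted p = 0.0628), without siPAX8 replicate 2 (log2 0.45, adjusted p = 0.0527) and without siSOX17 replicate 2 (log2 0.36, adjusted p = 0.107). DNAJC3 (-0.46 ± 0.16) was not called with siNT2 alone as control (log2 -0.38, adjusted p = 0.127), without siDual replicate 1 (log2 -0.37, adjusted p = 0.173), without siNT1 replicate 1 (log2 -0.41, adjusted p = 0.0845), without siNT2 replicate 2 (log2 -0.45, adjusted p = 0.0562), without siPAX8 replicate 2 (log2 -0.27, adjusted p = 0.276), without siSOX17 replicate 1 (log2 -0.46, adjusted p = 0.0873) and without siSOX17 replicate 2 (log2 -0.46, adjusted p = 0.0905).

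**Figure D4:**
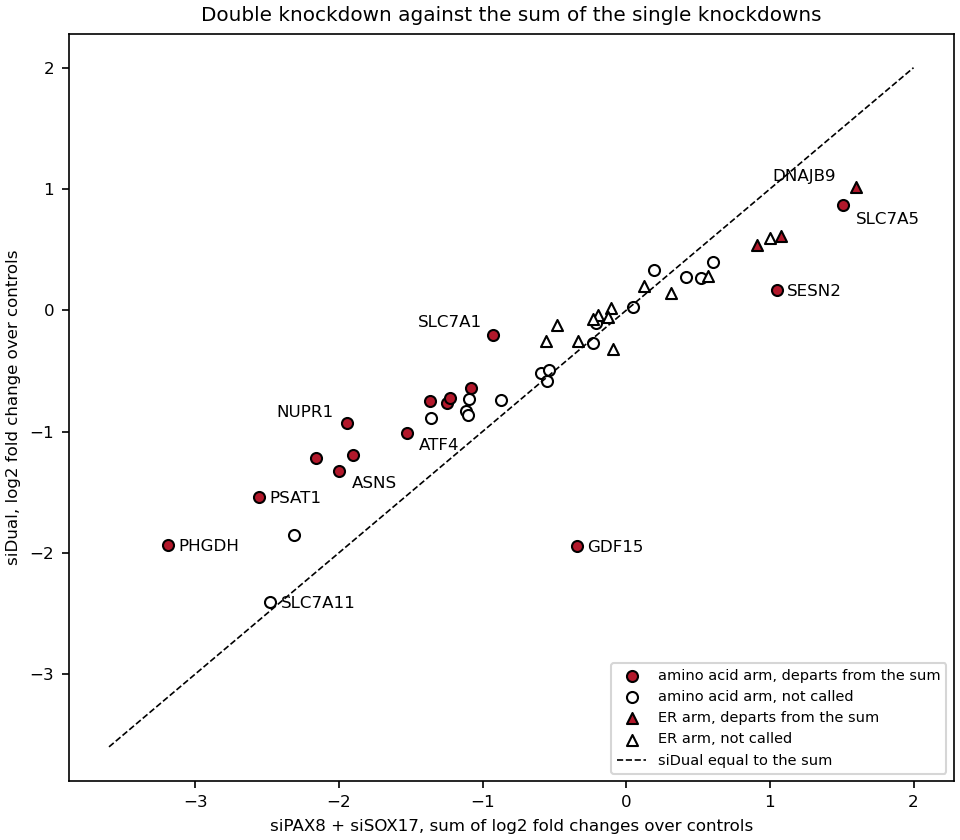
Log2 fold change of each member in siDual cells (vertical axis) against the sum of its log2 fold changes in siPAX8 and siSOX17 cells (horizontal axis), each over the controls; circles are amino acid genes, triangles ER genes, filled where the departure from the sum was called, and the dashed line marks equality. PHGDH, PSAT1 and ASNS lie above the line, GDF15 far below it at -1.94, and SLC7A11 close to it at -2.41.

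Other genes of the same pathways, from lists drawn up by name, were read beside the members. Their counts stand against the shares of all genes called higher and lower, which were 26.9% and 25.4% with siPAX8, 27.2% and 25.5% with siSOX17, 28.9% and 27.3% with siDual, 16.5% and 16.1% with siMECOM, and 17.7% and 19.8% with siWT1. Of 22 sensors and control genes of the unfolded protein and integrated stress responses, 7 rose and 7 fell with siPAX8, 4 and 4 with siSOX17, 7 and 3 with siDual, 1 and 1 with siMECOM, and 3 and 7 with siWT1. The siPAX8 counts lay near the background and the siSOX17 and siMECOM counts under it. EIF2AK3, the ER-bound kinase PERK, rose with siPAX8 (0.69 ± 0.08) and siDual (0.33 ± 0.08) and fell with siWT1 (-0.34 ± 0.08), and ATF3, a target of ATF4, fell with siPAX8 (-0.65 ± 0.16) and siDual (-0.81 ± 0.16) and rose with siWT1 (0.46 ± 0.14). CREB3L2, an ER-bound transcription factor, fell with siWT1 (-1.92 ± 0.08) and siMECOM (-0.87 ± 0.08). Of 24 other ER folding genes 9 rose and 2 fell with siPAX8, 11 and 1 with siSOX17, 13 and 1 with siDual, 0 and 17 with siMECOM, and 1 and 13 with siWT1. The oxidase ERO1A, which drives disulfide formation, rose with siSOX17 (1.01 ± 0.11), siDual (0.99 ± 0.11) and siPAX8 (0.74 ± 0.11) and fell with siMECOM (-0.34 ± 0.11), and CANX, the lectin calnexin, fell with siMECOM (-0.70 ± 0.08) and siWT1 (-0.29 ± 0.08). Of 20 other disposal and export genes 14 rose and 1 fell with siPAX8, 14 and 0 with siSOX17, 16 and 1 with siDual, 2 and 6 with siMECOM, and 1 and 7 with siWT1. UBE2J1, the ubiquitin-conjugating enzyme of ER disposal, rose in all 5 knockdowns: siDual (1.91 ± 0.07), siSOX17 (1.87 ± 0.07), siPAX8 (1.04 ± 0.07), siMECOM (0.49 ± 0.07) and siWT1 (0.46 ± 0.07).

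Of 22 other amino acid and one-carbon genes that could be tested out of 23, 2 rose and 10 fell with siPAX8, 3 and 15 with siSOX17, 3 and 15 with siDual, 3 and 11 with siMECOM, and 5 and 7 with siWT1. The mitochondrial folate enzyme ALDH1L2 fell with siMECOM (-1.42 ± 0.12), siSOX17 (-0.995 ± 0.12), siWT1 (-0.90 ± 0.12) and siDual (-0.80 ± 0.12), and GLUL, glutamine synthetase, rose with siMECOM (1.06 ± 0.06) and fell with siSOX17 (-0.86 ± 0.07), siDual (-0.77 ± 0.07) and siPAX8 (-0.63 ± 0.07). Of 16 other cytosolic tRNA synthetases 1 rose and 9 fell with siPAX8, 2 and 7 with siSOX17, 2 and 8 with siDual, 0 and 11 with siMECOM, and 4 and 3 with siWT1, which is near the background. QARS1, for glutamine, fell with siWT1 (-0.99 ± 0.07), siMECOM (-0.35 ± 0.07) and siPAX8 (-0.20 ± 0.07).

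Of 10 mitochondrial folding genes 0 rose and 8 fell with siPAX8, 0 and 4 with siSOX17, 0 and 7 with siDual, 0 and 6 with siMECOM, and 4 and 0 with siWT1. LONP1, the mitochondrial protease, fell with siSOX17 (-1.23 ± 0.07), siDual (-1.11 ± 0.07), siPAX8 (-0.77 ± 0.07) and siMECOM (-0.65 ± 0.07). Of 10 cytosolic heat shock genes 1 rose and 5 fell with siPAX8, 2 and 2 with siSOX17, 2 and 3 with siDual, 0 and 3 with siMECOM, and 0 and 3 with siWT1. The siSOX17 and siDual counts lay near or under the background. HSPB1, a small heat shock protein, rose with siDual (0.77 ± 0.10) and siSOX17 (0.56 ± 0.10) and fell with siMECOM (-0.82 ± 0.11) and siWT1 (-0.65 ± 0.11).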

How the data were processed

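The deposited table held whole-number read counts per gene for 14 libraries of OVCAR4 cells, not normalised by the authors, with gene length in a further column. Reads were aligned to hg38 with STAR 2.5.1b and counted with featureCounts 1.6.3, per the submitters' processing notes. The annotation release and the strand setting are not given in the sources used here, so a read in overlapping genes on either strand cannot be assigned to 1 of them. Beside the overlaps named above, this touches CRELD2, which averaged 38.5 CPM against 24.8 CPM for ALG12, and PDIA6, with 256 against 96.8 CPM for ATP6V1C2. It also touches PYCR1, with 140 against 59.3 CPM for an antisense gene, and SLC1A5, with 436 against 144 CPM for another.

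Of 58219 gene identifiers, 57437 were matched to a symbol. In edgeR 4.0.16, the function filterByExpr with a minimum count of 10 and a minimum total of 15 kept 21032 genes, and TMM factors corrected the library sizes. All 7 groups entered 1 quasi-likelihood fit (common dispersion 0.00573, biological coefficient of variation 7.6%, 7 residual degrees of freedom). Each knockdown was tested against the mean of siNT1 and siNT2. Control pools, pairs of knockdowns and additivity were tested in the same fit, 14 comparisons in all. Benjamini-Hochberg adjustment ran over all genes tested. Standard errors were derived by dividing each log2 fold change by the root of its F statistic. TPM used the gene lengths in the table. The test was also run on simulated counts with known changes.

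Genes named with values were ATF4, DDIT3, ASNS, XBP1 and HSPA5, and, in each arm, up to 6 of the largest called increases and decreases against controls without overlap between libraries and up to 3 in the other comparisons. Of each further pathway list, at most 2 were taken in each direction; members singled out beyond this were chosen after their values were seen. Some genes of these lists are not reported here by name. The members and lists were chosen with earlier results of these data known. Replicates of a group differed by more than sampling noise, with a chi-square per gene of 9.84 to 19.2. Alternatives were DESeq2 1.42.0, other size factors, other filters, a replicate block, only the groups compared, each control pool alone and each library left out in turn. Leaving out mitochondrial genes was added after the data were seen. Promoter sequences are from RefSeq (GRCh38.p14).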

Additional observations from a re-analysis of the deposited data

Results flagged for a closer look

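Among the 4 control libraries, siNT2 replicate 2 stood far above the other 3 for 2 small ER proteins: SDF2L1 at 76.3 CPM and CRELD2 at 50.2 CPM. With 47 members examined, chance marks about 1 group in 20 in this way. The part of that library was checked by leaving it out. The siMECOM value of CRELD2 was then -0.27 and was no longer called by edgeR, while the siMECOM call of SDF2L1 held.

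For 18 members the effect in siDual cells departed from the sum of the siPAX8 and siSOX17 effects, a difference tested as an interaction in edgeR's quasi-likelihood fit. Of all genes tested, 12.0% were called above the sum and 13.0% below it. The calls of DDIT3, NUPR1, HSPA5 and DNAJC3 ended when 1 library was left out. Above the sum, on the log2 scale, were the regulators ATF4 at 0.51, DDIT3 at 0.44, CEBPG at 0.61 and NUPR1 at 1.02. The synthesis enzymes above the sum were ASNS at 0.67, PSAT1 at 1.02, PHGDH at 1.26, SHMT2 at 0.70, MTHFD2 at 0.95 and PYCR1 at 0.51, joined by the carrier SLC7A1 at 0.72 and the tRNA synthetase AARS1 at 0.48. Below the sum were SESN2 at -0.88, SLC7A5 at -0.64 and GDF15 at -1.60 in the amino acid arm, and HSPA5 at -0.38, DNAJB9 at -0.58 and DNAJC3 at -0.46 in the ER arm. Residual PAX8 was 25.2% of controls in siDual and 17.4% in siPAX8 cells, and residual SOX17 was 15.2% in siDual and 13.0% in siSOX17 cells. The part of that difference in knockdown in the departures was not tested.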

How the results depend on the processing

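In each of the 5 knockdowns against controls the number of members called stayed within 1.5 times the reported one under every alternative tried, and no named result changed direction. The exceptions among the other comparisons were siDual against siSOX17, where 9 members became 14 with no filter on low counts, and siNT1 against siNT2, where 0 became 1 with DESeq2, 2 with no filter on low counts and 1 with the replicate block; the cause was not tested. With each library left out in turn, the members called ranged from 27 to 34 with siPAX8, 29 to 35 with siSOX17, 33 to 38 with siDual, 38 to 42 with siMECOM, 26 to 33 with siWT1, 15 to 21 for additivity, 4 to 11 for siDual against siSOX17, 18 to 24 for siDual against siPAX8, 23 to 30 for siPAX8 against siSOX17, 28 to 34 for siMECOM against siSOX17, 33 to 39 for siMECOM against siPAX8, 27 to 36 for siWT1 against siMECOM and 27 to 33 for siWT1 against siPAX8. Such a fit assumes that the lone library left in a group varies like the others. Same-numbered libraries deviated together in some pairs of groups and not in others (correlation of deviations -0.171 to 0.601, median 0.196, 13 of 21 above 0.1). The labels do not say whether the numbers pair the samples, and these values cannot decide it. The replicate block gave 34 members with siPAX8, 35 with siSOX17, 39 with siDual, 42 with siMECOM, 32 with siWT1 and 21 for additivity. Of the fold changes of members that were called or named, refitted under each alternative, 8828 kept their side of the threshold, 305 lost the call and 1 gained it. The 263 values of members not called as reported came out as called in 148 of 5954 refits, and 45 of the 263 did so at least once. Counts of an arm in 1 direction moved by over 1.5 times in 78 cases.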
